A study of Mus musculus with 89 samples.

Results

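The wells described here are single sorted cells of the mouse jejunum that carried transcripts of peptide hormones, the messengers that enteroendocrine cells release into blood and tissue. They were found in a table of 16850 wells from 4 mice, in which each value is a count of unique molecular identifiers (UMIs, 1 per captured mRNA molecule). Of these wells, 5199 were kept, with 200 to 7000 UMIs, 150 to 1500 detected genes and at most 40% mitochondrial UMIs. A kept well was called enteroendocrine when the UMIs of 12 genes (Chga, Chgb, Sct, Cck, Gip, Ghrl, Gcg, Nts, Sst, Pyy, Tac1 and Tph1) summed to at least 8. That gave 283 wells, of which 94 had more than 1 UMI of Tph1 plus Tac1 and the other 189 are the peptide hormone wells, 3.64% of the wells kept. Each was then named by its highest hormone among Gip, Sst, Sct, Cck, Nts, Ghrl, Gcg and Pyy, so the levels of the 12 genes in these wells are descriptions and were not tested.

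The cells came from the jejunal epithelium of male C57BL/6 mice aged 3 months, apart from 3 plates of mouse 2 labelled 4 months, and their polyadenylated RNA was sequenced with MARS-seq, a plate-based single-cell method. No group was treated. The plates differ in the surface markers named for sorting. For mouse 1 they are labelled EpcamLow_Cd24high, Epcam_Cd24low or with no marker. For mouse 2 they are labelled CD24, Epcam or none, for mouse 3 CD45Epcam or onlyEpcam, and for mouse 4 CD54Epcam or onlyEpcam. Mouse 2 supplied 165 of the 189 wells and its 5 CD24 plates alone supplied 138, while mice 1, 3 and 4 supplied 12, 5 and 7. The replicate is the mouse, and a difference that rests on mouse 2 has no replicate. The 189 wells had a median of 1903 UMIs (316 to 5816), 673 genes and 10.0% mitochondrial UMIs, against 19.3% in kept wells below the threshold.

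Enteroendocrine cells are scattered, hormone-secreting cells of the gut epithelium that sense nutrients and store hormones in dense-core granules. Granins such as Chga, Chgb and Scg2 help to form the granules, and prohormone convertases and carboxypeptidase E (Cpe) cut the precursors into active peptides. Gip encodes the glucose-dependent incretin of the upper small intestine, Cck cholecystokinin, Sct secretin, Nts neurotensin, Gcg the precursor of the glucagon-like peptides, Ghrl ghrelin, Pyy peptide YY and Sst somatostatin, which inhibits the release of other hormones. Enterochromaffin cells, the other main branch, make serotonin with the enzyme Tph1 and the tachykinin Tac1, and are the cells that the limit on Tph1 plus Tac1 set aside.

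The leading hormone genes lie on separate chromosomes in GRCm38, each annotated by GENCODE as a protein-coding gene. Gip is at chr11:96024545-96030831 on the plus strand and Sst at chr16:23889573-23890958 on the minus strand. Cck is at chr9:121489824-121495694, Sct at chr7:141278330-141279133, Nts at chr10:102481756-102490486, Ghrl at chr6:113716119-113719880 and Gcg at chr2:62474530-62483650, all on the minus strand.

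The 120 bases before the RefSeq start of 4 genes are shown because somatostatin transcription is known to respond to cyclic AMP through the 8-base element TGACGTCA, which reads the same on both strands. The sequences are from RefSeq on GRCm38.p6, 5′ to 3′ along each gene's own strand, with the element in capitals. Sst is chr16:23890845-23890964 (minus), Chgb chr2:132781522-132781641 (plus), Scg2 chr1:79440027-79440146 (minus) and Gip chr11:96024425-96024544 (plus). The GENCODE genes of Sst, Chgb and Scg2 begin upstream of the RefSeq start, so that most of the Sst and Scg2 stretches and the whole Chgb stretch lie inside the GENCODE gene.
Sst: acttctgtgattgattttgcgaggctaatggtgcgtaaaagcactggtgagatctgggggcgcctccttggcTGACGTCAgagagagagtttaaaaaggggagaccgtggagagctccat
Chgb: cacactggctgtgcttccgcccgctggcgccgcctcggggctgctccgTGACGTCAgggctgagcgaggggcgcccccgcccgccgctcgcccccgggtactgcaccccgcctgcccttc
Scg2: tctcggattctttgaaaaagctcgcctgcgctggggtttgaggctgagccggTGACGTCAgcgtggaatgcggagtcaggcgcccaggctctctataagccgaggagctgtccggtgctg
Gip: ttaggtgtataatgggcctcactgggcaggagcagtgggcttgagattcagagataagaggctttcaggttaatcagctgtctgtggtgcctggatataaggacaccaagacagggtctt
The element is in the Sst, Chgb and Scg2 stretches and these letters are not in the Gip stretch. Among RefSeq windows running from 250 bases before to 50 after each gene's start, 588 of 32851 held it (1.79%), as did 411 of 13104 genes of the count table with a window (3.14%). It was in 2 of the 12 genes of the rule and in 2 of the 22 granule and processing genes with a window, Scg2 and Pcsk1. A match is a description of the letters, not evidence of binding.

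The label was first checked with 28 granule and processing genes that the rule did not use, among them Scg2, Scg3, Pcsk1, Cpe and Scgn. In wells with 300 or more UMIs of the 12 genes, this list reached 70.3 UMIs per 10000 (64 wells), and in those with 100 to 299 it was at 66.0 (62 wells). It was at 35.8 in those with 32 to 99 (26 wells) and at 18.3 in those with 16 to 31 (5 wells), but at only 4.36 in those with 8 to 15 (32 wells). Kept wells with 0 of the 12 genes' UMIs were at 0.940 and those with 4 to 7 at 2.40. The granule genes were thus far above the other kept wells where the 12 genes reached 32 UMIs, and near them just above the threshold.

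The 37 wells with 8 to 31 UMIs of the 12 genes carried markers of other cells. A list of 10 tuft cell markers (tuft cells are chemosensory epithelial cells) was at 68.8 per 10000 in the wells of 8 to 15 UMIs, against 1.38 in those of 32 to 99. A list of 10 lymphocyte markers was at 171 against 4.82. Of the 32 wells of 8 to 15 UMIs, 22 had at least 5 tuft or at least 10 lymphocyte UMIs, as did 2 of the 5 wells of 16 to 31 and 1 of the 152 wells of 32 or more. Among the 37 wells, 36 were from mouse 2 and were sorted on its CD24 plates. Wells below the threshold held hormone UMIs too. On those plates 63.8% of the kept wells below the threshold had a Gip UMI, 31.0% an Sst UMI and 16.6% an Sct UMI, whereas on the Epcam plates of the same mouse Gip was found in 8.53%. Sct was more frequent in wells below the threshold on the plates of mouse 2 with no marker, at 23.5%. The source of these UMIs and their part in the naming of the 37 wells was not tested. Just inside the threshold, 11 of 18 wells with 8 or 9 UMIs had a granule-list UMI, and just outside it 22 of 59 wells with 6 or 7. The limit on Tph1 plus Tac1 split 11 wells with 1 UMI from 25 with 2 or 3. The threshold of 32 UMIs, which leaves the 37 wells out, was chosen after the data were seen, and values are over all 189 wells unless wells of 32 or more rule UMIs are named. No doublet caller was run.

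**Figure D1:**
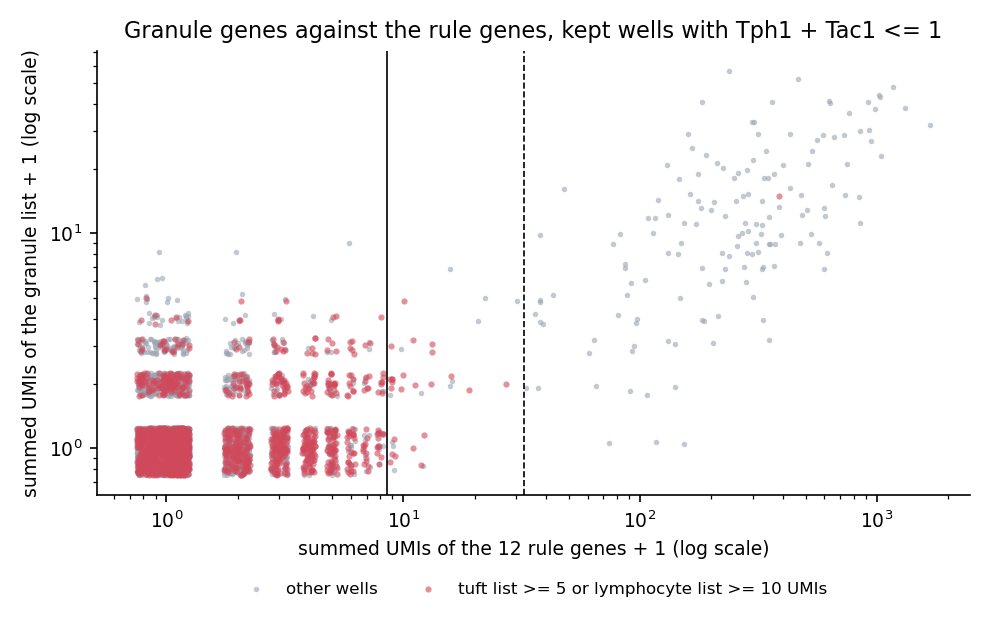
Each point is 1 kept well with at most 1 UMI of Tph1 plus Tac1, with the summed UMIs of the 12 rule genes plus 1 on the x axis and of the granule list plus 1 on the y axis (both log scales, points spread slightly). Red wells have at least 5 tuft or at least 10 lymphocyte UMIs, the solid line marks 8 UMIs and the dashed line 32, and red wells make up 22 of the 32 with 8 to 15 UMIs but 1 of the 152 to the right of the dashed line.

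By highest hormone the 189 wells fell into 96 Gip, 46 Sst, 17 Sct, 11 Cck, 7 Nts, 4 Ghrl and 2 Gcg wells, with 6 wells that had no single highest hormone and none led by Pyy. Without the 37 low wells the counts were 75, 38, 13, 11, 7, 4 and 2, with 2 unnamed, so the low wells were found only among Gip, Sst, Sct and unnamed wells. The Gip wells came from all 4 mice (4, 86, 4 and 2), and the Sst wells came almost all from mouse 2 (44, with 1 in mouse 1 and 1 in mouse 4). The Nts and Ghrl wells came from mice 1 and 2, and both Gcg wells from mouse 2. The mix of hormones differed between the plates of mouse 2. On its CD24 plates 82 of 138 wells were led by Gip and none by Nts, whereas on the 5 plates with no marker 0 of 19 were led by Gip, 6 by Cck, 5 by Nts, 5 by Sst and 3 by Sct. Of those 5 plates, 3 are the ones labelled 4 months, and the other 2, at 3 months, also had 0 of 6 wells led by Gip, with 2 led by Cck and 2 by Nts.

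Over all 189 wells, Gip had a median of 169.5 UMIs in the Gip wells and ranged from 3 to 1535. Secretin was the common companion: Sct was the second hormone in 71 of the 96 wells, with a median of 12 UMIs, and Chgb had a median of 5. Cck was found at a median of 1 UMI. Ghrl, Gcg and Nts were each found in at most 4.17% of the Gip wells. In the 75 Gip wells of 32 or more rule UMIs the medians were 233 Gip and 20 Sct UMIs, and Sct was second in 66.

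In the Sst wells, Sst had a median of 245 UMIs and ranged from 3 to 928. Ghrelin was here the companion, with a median of 14 Ghrl UMIs, second in 34 of the 46 wells. Across the 5 CD24 plates the Ghrl level of the Sst wells with 32 or more rule UMIs lay between 74.0 and 180 UMIs per 10000, while in the Gip wells it was at most 0.507, so that the ranges did not overlap. The only Sst wells of mouse 1 and mouse 4 were at 299 and 412 per 10000. In the 38 Sst wells of 32 or more rule UMIs the medians were 266 Sst and 17 Ghrl UMIs, with Ghrl second in the same number of wells, 34.

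Secretin was shared more widely. In the 17 Sct wells it had a median of 44 UMIs (3 to 369), and no second hormone dominated, Nts being second in 5. In the 13 of 32 or more rule UMIs the median was 56. A split made after the values were seen set apart 5 Sct wells, all from CD24 plates of mouse 2, with more Chga plus Chgb than Sct UMIs. They held 3 to 8 Sct, 12 to 20 Chgb and 2 to 13 Chga UMIs, and their enterochromaffin list was at 72.8 per 10000 (31 UMIs), against 12.1 in the other 12 Sct wells (28 UMIs) and 188 in the wells with Tph1 or Tac1. All 7 Nts wells had Sct as the second hormone, with 17 to 129 Sct UMIs beside 38 to 244 Nts UMIs, and 8 of the 11 Cck wells did too, with a median of 40.5 Sct beside 95 Cck UMIs in those 8. The 4 Ghrl wells had 107 to 289 Ghrl UMIs and no Sst UMI. Both Gcg wells had Cck as the second hormone (51 and 197 UMIs beside 79 and 349 Gcg UMIs). The leading hormone therefore made up a median of 88.4% of hormone UMIs in Gip wells and 87.2% in Sst wells, but 58.4% in Sct, 56.5% in Cck and 59.0% in Nts wells. Without the low wells it was 91.3% in Gip, 89.0% in Sst and 55.4% in Sct wells.

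Since wells below the threshold also held hormone UMIs, each well was also thinned to 500 UMIs and compared with the 4506 kept wells below the threshold that were deep enough. Their median depths were 1903 UMIs for the peptide hormone wells and 1668 for wells below the threshold before thinning. The rule itself limits these UMIs in wells below the threshold, so the gaps are descriptions. An Sct UMI was found in 71.3% of 94 thinned Gip wells (unthinned 85.4% of 96) against 1.86% of wells below the threshold. A Ghrl UMI was found in 81.4% of 43 thinned Sst wells (unthinned 84.8% of 46) against 0.488%. On the CD24 plates of mouse 2, unthinned, 84.1% of 82 Gip wells had an Sct UMI, at a pooled level of 113 per 10000. The Sst wells there had one in 68.4% (12.6 per 10000) and the wells below the threshold in 16.6% (1.48 per 10000). Of the 38 Sst wells on those plates 81.6% had a Ghrl UMI, against 5.59% below the threshold and 3.66% of the Gip wells, at 105 per 10000 against 0.456 and 0.155. A Gip UMI was found in 37.2% of the thinned Sst wells against 6.41%. By plate label, 28 of the 38 Sst wells on the CD24 plates of mouse 2 had a Gip UMI (73.7%), against 63.8% of the wells below the threshold there, at median depths of 1640.5 and 1088 UMIs. Pooled, Gip was at 13.0 UMIs per 10000 in these Sst wells, at 8.25 without 1 well of 37 Gip UMIs, and at 9.31 in the wells below the threshold. On the plates with no marker 2 of the 5 Sst wells had Gip, with 7 and 1 UMIs, against 1.68% of the wells below the threshold. Apart from the well of 37 UMIs, Gip in the Sst wells of the CD24 plates was thus near its level in wells below the threshold, and the source of the Gip UMIs was not tested.

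**Figure D2:**
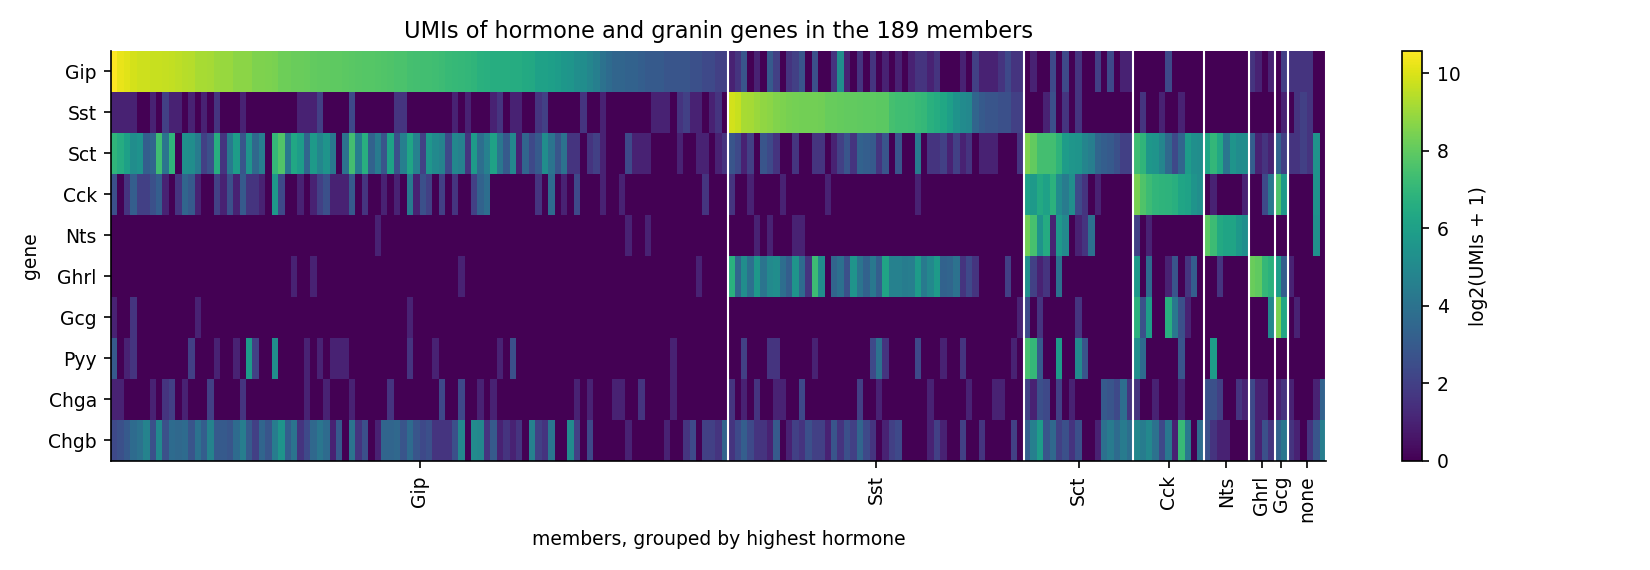
Each column is 1 of the 189 wells, grouped by its highest hormone (none where no single hormone led) and ordered by its UMIs, each row is a hormone or granin gene, and colour gives log2(UMIs + 1). Ghrl runs through the Sst wells, where its median is 14 UMIs, and Sct runs through the Gip wells with a median of 12, through the Cck wells with 38 and through the Nts wells with 43.

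The peptide hormone wells were next set against the kept wells below the threshold of the same 4 mice, by summing each gene over the wells of a mouse. The rule drew this contrast, so counts and fold changes describe the wells and support nothing about them. Of 6860 genes tested, 822 passed an adjusted p of 0.05 in edgeR's quasi-likelihood test (12.0%), 131 higher (1.91%) and 691 lower (10.1%), with a median log2 fold change of -0.61 over all genes. With the mouse as a block 532 passed, 101 higher and 431 lower, and 485, 547 and 423 passed without mouse 2, 3 or 4. Without the 37 low wells 748 of 9486 testable genes passed (224 higher, 524 lower), with no sum left for the peptide hormone wells of mouse 3.

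The largest rise was that of Scg2. This granin was at 12.2, 6.16, 17.9 and 7.21 UMIs per 10000 in the wells of mice 1 to 4 and at most 0.0241 in wells below the threshold (log2 fold change 8.87 ± 0.947, SE). All 4 mice were far above their own background. Scgn (secretagogin, a calcium sensor of secretory cells) was at 3.82 to 6.31 per 10000 and Rbp4, the plasma carrier of retinol, at 5.09 to 10.5. The fatty acid receptor Ffar1 was at 1.05 to 4.07 and the cannabinoid receptor Cnr1 at 0.876 to 2.06. The potassium channel subunit Kcnj3 was at 0.396 to 6.31, with mouse 3 highest. Etv1, an ETS transcription factor, had 21 UMIs against 0, at least 194-fold higher with the floor of 3 UMIs taken over all wells below the threshold. By list, 12 of the 14 tested granule and processing genes and 10 of the 14 tested endocrine transcription factors were called higher and none lower, with median log2 fold changes of 6.11 and 4.08. Receptors and channels were mixed, with 2 of 6 higher and 2 lower, as were other secreted products, with 2 of 5 higher and 3 lower. Of the 4 tested enterochromaffin genes 3 were higher, and of the 3 tested genes of a list of adhesion genes 2 were lower, all against the kept wells below the threshold. Over all its genes that list was at 0.472 per 10000 in all 189 wells and at 0.410 in those of 32 or more rule UMIs. Over all wells it was at 1.34 in the Sst wells, 0.317 in the Gip wells and 0.0504 in the wells with Tph1 or Tac1, against 0.915 below the threshold. In the Sct, Cck, Nts, Ghrl and Gcg wells it was 0 of 27369, 23868, 11295, 8963 and 7226 UMIs. A floor of 3 UMIs lies above 0.317 in all of these groups and above 1.34 in the Nts, Ghrl and Gcg wells. Those zeros are therefore not shown to be lower.

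Absorptive and goblet cell markers were low. All 10 enterocyte markers and 7 of the 8 tested goblet markers were called lower. Mogat2, which resynthesises dietary fat, and Abcg5, a sterol exporter, had 0 UMIs in all 4 mice, at least 11.9-fold and 11.3-fold lower with a floor of 3 UMIs over all peptide hormone wells. Of the other lists, 0 of 3 stem and dividing cell genes, 1 of 8 immediate-early and stress genes (lower) and both tested immunoglobulin or hemoglobin genes (lower) were called. Of 10 lymphocyte markers 5 were lower, and none of the 5 tested tuft or the 4 tested Paneth markers was called. The tuft list stood at 18.6 per 10000 in mouse 2 and at most 0.340 in the other mice, and the lymphocyte list at 43.4 in mouse 2 and 61.0 in mouse 3, the mice that hold the 37 low wells.

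The wells with Tph1 or Tac1 are the nearest relatives, and here 164 genes could be tested, between the sums of 4 mice and those of the 2 mice (2 and 3) with at least 5 such wells. The split used Tph1 and Tac1, so these values are again a description. Of the 164 genes 11 passed (6.71%), 5 higher in the peptide hormone wells (3.05%) and 6 lower (3.66%). With the mouse as a block 32 passed, 13 higher and 19 lower. Leaving out single mice gave 0 to 77, with 0 without mouse 2, 3 without mouse 1, 19 without mouse 4 and 77 without mouse 3, where 2547 genes could be tested. With the threshold of 32 UMIs on both sides, which leaves out the 37 low wells and 8 of the 94 Tph1 or Tac1 wells and leaves mouse 3 with too few wells in either arm, 88 of 2340 testable genes passed (33 higher, 55 lower). Only 1 sum is then left on the Tph1 or Tac1 side, as when mouse 3 alone is left out, so the part of the low wells in this change cannot be told apart from that of mouse 3.

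Higher in the peptide hormone wells was Rbp4, at 5.09, 5.34, 10.5 and 5.15 per 10000 in mice 1 to 4 and 0 in both Tph1 or Tac1 sums, at least 35.1-fold higher. Isl1, a LIM-homeodomain factor of endocrine lineages, was at 1.02, 4.16, 5.26 and 8.24 and also 0 in both, at least 26.1-fold higher. In both genes no mouse overlapped with the other wells, with floors of 3 UMIs over the group. The Tph1 or Tac1 sum of mouse 3 held 9042 UMIs, so its 0 allows a level above the 1.02 of Isl1 in mouse 1. Scg2 was at 6.16 to 17.9 against 0.217 and 0, a log2 fold change of 5.94 ± 0.941 (SE). Fabp5, a fatty acid binding protein, was at 6.11 to 25.2 against 0.163 and 0. The fifth gene, Gm6166, is a processed pseudogene at chr9:57483963-57484371 that shares 69.5% of its 30-base words with Fabp5 transcripts, so reads over those words fit both genes and its level of 3.06 to 31.6 is uncertain.

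Lower in the peptide hormone wells was Reg4, a secreted lectin, at 0, 1.33, 0 and 4.12 per 10000 against 164 and 170. Alpha-fetoprotein (Afp) was at 0, 0.254, 0 and 0 against 17.7 in both. Keratin 19 (Krt19) was at 0 to 1.03 against 20.5 and 18.8, keratin 7 (Krt7) at 0 to 3.09 against 23.1 and 11.1, and Ambp, a secreted plasma protein precursor, at 0 to 1.05 against 8.19 and 11.1. Atp5g3, a mitochondrial ATP synthase subunit, was at 1.02 to 4.12 against 10.4 and 6.64. None of the 6 genes overlapped between the arms. They had passed, and a gene was named only if every mouse lay on the same side, so this describes the choice. The ion channel Asic5 (148 UMIs against 0) and the homeobox gene Hhex (25 against 0) were left out of the test by its filter on low counts. The granins of the rule ran the other way: Chgb was at 33.0 to 60.0 per 10000 in the peptide hormone wells against 205 and 293, and Chga at 2.10 to 10.3 against 108 and 102.

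**Figure D3:**
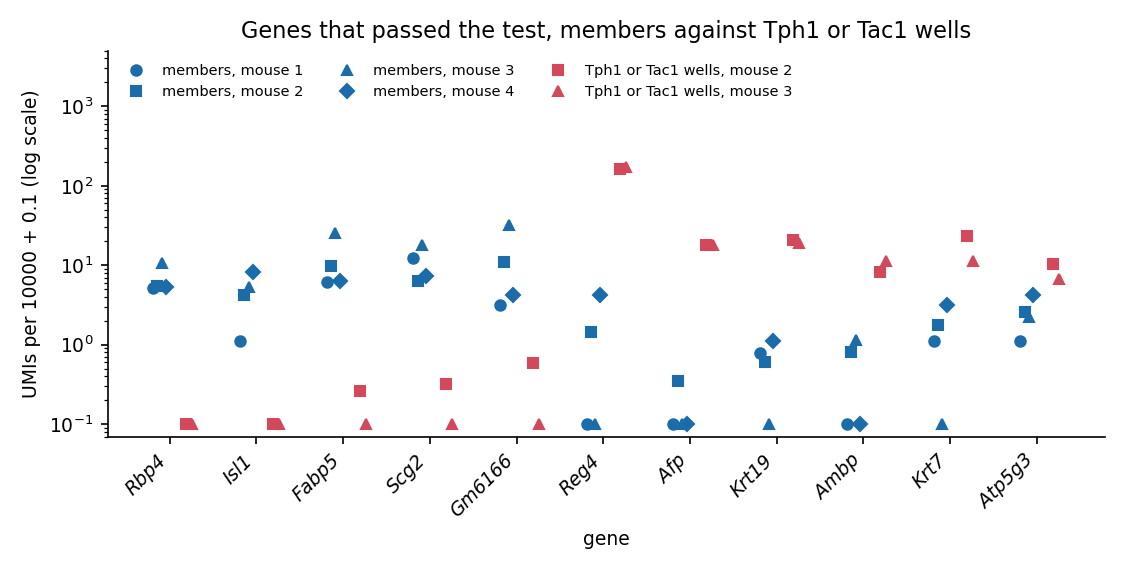
The y axis gives UMIs per 10000 plus 0.1 on a log scale for the 11 genes that passed, with 1 point per mouse for peptide hormone wells (members, blue) and for wells with Tph1 or Tac1 (red). Blue points lie above red for the 5 genes on the left, as with Isl1 at 1.02 to 8.24 against 0, and below for the 6 on the right, as with Reg4 at 0 to 4.12 against 164 and 170.

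Among the hormone groups only Gip (mice 1, 2 and 3) and Sct (mice 1 and 2) had at least 3 wells in 2 mice or more. Of 48 genes tested between them 0 passed in edgeR (0%), with 5 at an unadjusted p under 0.05 and 3 called by DESeq2 or with the mouse as a block. At 32 or more rule UMIs 0 of 46 passed. Lgals2, a galectin, was at 17.7, 8.90 and 6.81 per 10000 in the Gip wells and at 33.3 and 46.8 in the Sct wells (log2 fold change -1.92 ± 0.456, SE). The tested sums did not overlap. Lgals2, Crip1, Myl7 and Fabp5 are named because they were among the 5 genes of lowest p. Sums that lie apart are thus a description and not a result about these genes. The cytoplasmic LIM protein Crip1 was at 2.53, 5.05 and 0 against 18.0 and 15.4, and the atrial myosin light chain Myl7 at 7.60, 10.7 and 4.08 against 21.6 and 17.4. Fabp5 was at 11.8, 15.7 and 25.9 in the Gip wells against 3.60 and 4.68. At 32 or more rule UMIs mouse 1 was the same, and in mouse 2 Lgals2 was at 8.84 against 51.1, Crip1 at 2.81 against 17.3, Myl7 at 14.3 against 19.04 and Fabp5 at 20.9 against 3.46. The single Sct well of mouse 4, under the minimum of 3 wells, had Lgals2 at 15.4 (2 UMIs). This is below the Gip wells of mouse 1 and above those of mouse 4, at 5.84 (1 UMI). Against the Gip wells of mouse 4, Crip1 was at 15.4 against 0 and Fabp5 at 0 against 29.2. Myl7 went the other way, at 0 against 11.7 (2 UMIs). Scg2 overlapped between the groups, at 4.22 to 9.53 in the Gip wells and 27.9 and 7.36 in the Sct wells. The 2 mice of the Sct arm limit this comparison, and the absence of calls does not show that the groups are alike.

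Sst and Gip wells can be compared in depth only within mouse 2, with 36 Sst and 66 Gip wells of 32 or more rule UMIs. This is 1 mouse, so there is no test. Of the 36 Sst wells 30 were from CD24 plates and 5 from plates with no marker, 4 of those labelled 4 months. No Gip well was from a plate with no marker. The pooled levels therefore mix hormone with sort and age, unlike the values by CD24 plate. Intervals are exact 95% Poisson limits that cover counting error only, and the plates are repeats within the animal. Of 953 genes with at least 20 UMIs in these wells, leaving out the 12 rule genes, the intervals separated for 114 (12.0%), with 52 higher in the Sst wells (5.46%) and 62 in the Gip wells (6.51%). The gene that stood out most was Iapp, which encodes the amyloid peptide amylin and was at 30.5 UMIs per 10000 (26.5 to 34.9), in 31 of 36 Sst wells, against 0.0670 (1 UMI) in the Gip wells. It was at 20.8, 0, 35.2, 27.2 and 26.9 on the 5 CD24 plates, where the plate at 0 held 1 Sst well, and at 0 to 0.203 in the Gip wells. Asic5, an ion channel of the acid-sensing family, was at 18.7 (15.7 to 22.2) against 0.670 (0.321 to 1.23), 28.0-fold higher. On the plates it was at 5.83 to 26.4 in Sst wells and at 0 to 0.685 in Gip wells, and these ranges did not overlap. The single Sst well of mouse 1 had Iapp at 54.3 and Asic5 at 47.6, while the Sst well of mouse 4, with 364 UMIs, had neither.

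Of 8 listed transcription factors with at least 20 UMIs, the Poisson intervals separated for 4, with Hhex, Sox4 and Isl1 higher in the Sst wells and Rfx6 in the Gip wells, and overlapped for Insm1, Pax6, Fev and Hopx, beside the 12.0% of all genes compared. Hhex, a homeobox factor needed for somatostatin cells of the pancreas, had 24 UMIs in 13 of 36 Sst wells and 0 in 66 Gip wells, at least 17.1-fold higher with the floor of 3 UMIs over the Gip wells. Sox4 was at 5.30 (3.73 to 7.30) against 1.27 (0.766 to 1.99) and Isl1 at 8.87 (6.80 to 11.4) against 4.02 (3.07 to 5.17). On the plates the ranges of Isl1 overlapped, at 3.33 to 19.3 and 1.77 to 5.48, but within each of the 5 plates Isl1 was higher in the Sst wells, as was Sox4. The single Sst wells of mice 1 and 4 had no Isl1 and no Hhex UMI. By contrast Rfx6, a factor required for endocrine differentiation, was at 0.572 (0.156 to 1.47) in the Sst wells against 2.61 (1.86 to 3.57) in the Gip wells, and its plate ranges overlapped (0 to 0.943 and 0.590 to 4.06), with the Gip wells higher within each of the 5 plates.

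Fabp5 and Myl7 were higher in the Gip wells, and of 17 granule and processing genes compared the intervals separated for 5 (Scg2, Cpe, Pam, Scgn and Aplp1), all higher in the Gip wells, and overlapped for 12, beside 6.51% of all genes compared that were higher in the Gip wells. Fabp5 was at 20.9 (18.6 to 23.3) against 1.14 (0.494 to 2.26), 18.2-fold higher, at 8.85 to 23.3 on the plates of Gip wells and at 0 to 9.63 on those of Sst wells, where the overlap comes from the plate with 1 Sst well. Myl7 was at 14.3 against 1.14, 12.5-fold higher, with no overlap on the plates (7.60 to 18.7 and 0 to 2.35). Scg2 was at 7.37 (6.05 to 8.88) against 1.14 (0.494 to 2.26), with no overlap either (3.54 to 11.7 and 0 to 1.60). Pam, which amidates peptide hormones, was at 3.48 against 0.572, Cpe at 14.8 against 9.02 with overlapping plate ranges (5.31 to 20.9 and 5.00 to 14.5), and Pcsk1, the prohormone convertase, at 2.01 (1.36 to 2.87) against 1.72 (0.887 to 3.00), so the intervals of Pcsk1 overlap. Within plates Scg2, Pam and Cpe were higher in the Gip wells on all 5, Aplp1 on 4 and Scgn on 3, and Pcsk1 on 2. These plates share 1 mouse, so the counts of plates were not tested. Scg3, another granin, was at 2.81 in the Gip wells and 3.58 in the Sst wells, and the synaptotagmin Syt7 at 1.21 and 2.29, both with overlapping intervals. The sodium-glucose transporter Slc5a1 was at 1.94 against 0.429 and the aromatic amino acid decarboxylase Ddc at 6.56 against 1.29. In the single Sst wells of mice 1 and 4 Scg2, Myl7 and Pam had no UMI. Fabp5 was at 27.5 (1 UMI) in that of mouse 4, near the Gip wells there at 29.2. In the Sst well of mouse 1 Cpe (13.6 against 13.5), Aplp1 (13.6 against 1.69) and Ddc (6.79 against 4.22) were not below the Gip wells of that mouse, each with 1 or 2 UMIs. With the low wells included Iapp was at 24.2 in the 44 Sst wells and Fabp5 at 15.7 in the 86 Gip wells, and of the genes named here only Pcsk1 changed sides (1.59 in the Sst wells, with the Gip wells just below).

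**Figure D4:**
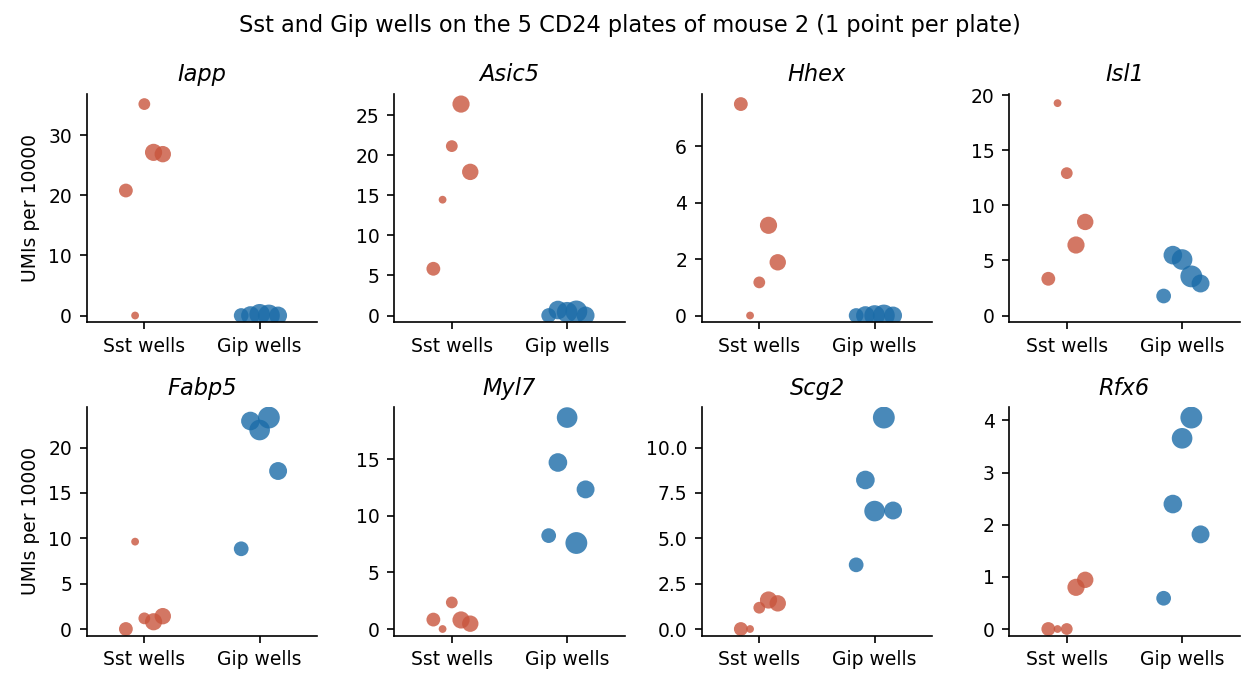
Each panel gives UMIs per 10000 (y axis) of 1 gene in the summed Sst wells and Gip wells of each CD24 plate of mouse 2, 1 point per plate and larger points for more wells (1 to 10 Sst wells, 7 to 17 Gip wells). Asic5 separates the groups at 5.83 to 26.4 against 0 to 0.685 and Scg2 the other way at 0 to 1.60 against 3.54 to 11.7, whereas the ranges of Isl1 and Rfx6 overlap, although Isl1 is higher in the Sst wells and Rfx6 in the Gip wells within each of the 5 plates.

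The smaller groups can only be described, from wells of 32 or more rule UMIs pooled over mice and with exact 95% Poisson intervals for counting error. The fatty acid receptor Ffar1 was at 8.85 per 10000 (4.25 to 16.3) in the Nts wells, 5.84 (3.19 to 9.80) in the Sct wells and 4.19 (2.01 to 7.71) in the Cck wells. It was lower, at 1.24 (0.768 to 1.90), in the Gip wells and at 0 of 71707 UMIs in the Sst wells, where a count of 0 allows up to 0.418 (3 UMIs). The intervals of Nts, Sct and Cck wells overlap each other. Scg2 was at 27.2 (65 UMIs in 9 of 11 wells) in the Cck wells, near the Gcg wells at 22.1 (12.7 to 36.0) and the Sct wells at 17.9 (13.0 to 24.2), whose intervals overlap, and at 1.12 (0.482 to 2.20) in the Sst wells. The mice differed, with Scg2 in the Sct wells at 27.9 in mouse 1 and 9.52 in mouse 2, and in the Cck wells at 32.3 in mouse 2 and 5.33 in mouse 4. Cpe was at 28.9 (22.5 to 36.6) in the Cck wells, and Nts wells were at 7.97 (3.64 to 15.1).

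Iapp and Asic5 were not found in the Ghrl wells, in 0 of 8963 UMIs, which allows up to 3.35 per 10000, though they were high in Sst wells that also carried Ghrl. Isl1 was at 13.4 (6.92 to 23.4) in the 4 Ghrl wells. Trefoil factor 3 (Tff3), a goblet cell product, was at 73.6 (57.0 to 93.7) in the Ghrl wells, with 66 UMIs in 3 of 4 wells, against 2.66 in Gip wells. The list of goblet markers, which includes Tff3, was at 75.9 in the Ghrl wells, so nearly all of its UMIs there were those of Tff3. The origin of Tff3 in these wells was not tested. Keratin 20 (Krt20), which marks mature epithelium, was at 26.3 (15.8 to 41.1) in the 2 Gcg wells and 12.4 (6.78 to 20.8) in the Nts wells, against 0.532 (0.243 to 1.01) in the Gip wells.

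The position of the wells along the crypt-villus axis was summarised by eta, the share of tip-landmark UMIs among the UMIs of tip and crypt landmark genes, which the study chose for enteroendocrine cells. Wells led by Cck, Gip, Nts or Sct had an eta of 0.140, 0.132, 0.170 and 0.0909 in mice 1 to 4. Wells led by Ghrl, Gcg, Pyy or Sst could be summed only in mouse 2, where eta was 0.114. The difference of 0.0196 had an exact permutation p of 0.6 (two-sided, n = 4 and 1). This design cannot give less than 0.2 and mouse 2 is in both arms, so nothing is read from it. Within mouse 2 the values were 0.132 and 0.114, and 0.143 and 0.122 at 32 or more rule UMIs, with 1 mouse and no test. On each of the 5 CD24 plates of mouse 2 the Gip wells of 32 or more UMIs had the higher eta, 0.207 against 0.124, 0.167 against 0.118, 0.138 against 0.122, 0.146 against 0.108 and 0.144 against 0.132. Those pairs share 1 mouse and were not tested. Over all plates of mouse 2, eta at 32 or more UMIs was 0.150 in Gip, 0.148 in Nts, 0.136 in Ghrl, 0.123 in Sst, 0.119 in Sct, 0.108 in Cck and 0.105 in Gcg wells, so Gip and Nts were above Sst while Sct and Cck were below it. Lgals3bp, Gpx3 and Aplp1 supplied 20.3%, 19.2% and 16.5% of the tip UMIs. Gpx3, an extracellular glutathione peroxidase, and Aplp1 were themselves higher in the Gip wells of mouse 2 with 32 or more rule UMIs. Gpx3 was at 7.90 against 3.01 per 10000 in the Sst wells and Aplp1 at 5.69 against 2.86. Eta was not computed without these genes, so their part in the higher eta of the Gip wells was not tested.

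The share of kept wells that were peptide hormone wells was tested by plate, since the sort did not enter the rule. In mouse 2 it was 8.00, 9.16, 14.0, 18.3 and 18.5% on the 5 CD24 plates (13.6% ± 4.92, SD) and from 0 to 2.41% on the 6 Epcam plates (1.34% ± 0.876). No plate overlapped. The difference of 12.2 percentage points had an exact permutation p of 0.00216 (two-sided, adjusted 0.00649 over 3 mice), and without the low wells it was 8.92 points. Plates are repeats within 1 mouse, so p measures the spread between plates only. In mouse 3 the CD45Epcam plates held 1.00% ± 1.73 (3 plates) and the onlyEpcam plates 0.143% ± 0.246 (7 plates; exact permutation, adjusted p = 0.45). Without the CD45Epcam plate at 3.00% the difference turned from 0.857 to -0.143 points. In mouse 4 the CD54Epcam plates held 0 of 258 wells, which allows up to 1.16%, and the onlyEpcam plates 0.975% ± 1.51 (7 plates; exact permutation, adjusted p = 0.467). The plates of mouse 2 with no marker held 14.2% ± 7.94 (5 plates). In mouse 1 the plates could not be compared, since only plates of at least 20 kept wells entered. Its 2 EpcamLow_Cd24high plates held 0 of 24 and 6 of 10 kept wells, its Epcam_Cd24low plate 0 of 19, and its 5 plates with no marker 6 of 757 (0.793%). As a share of enteroendocrine wells the order in mouse 2 was the reverse, 24.2 points lower on the CD24 plates (exact permutation p = 0.0952), where 83 of the 94 Tph1 or Tac1 wells were found.

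**Figure D5:**
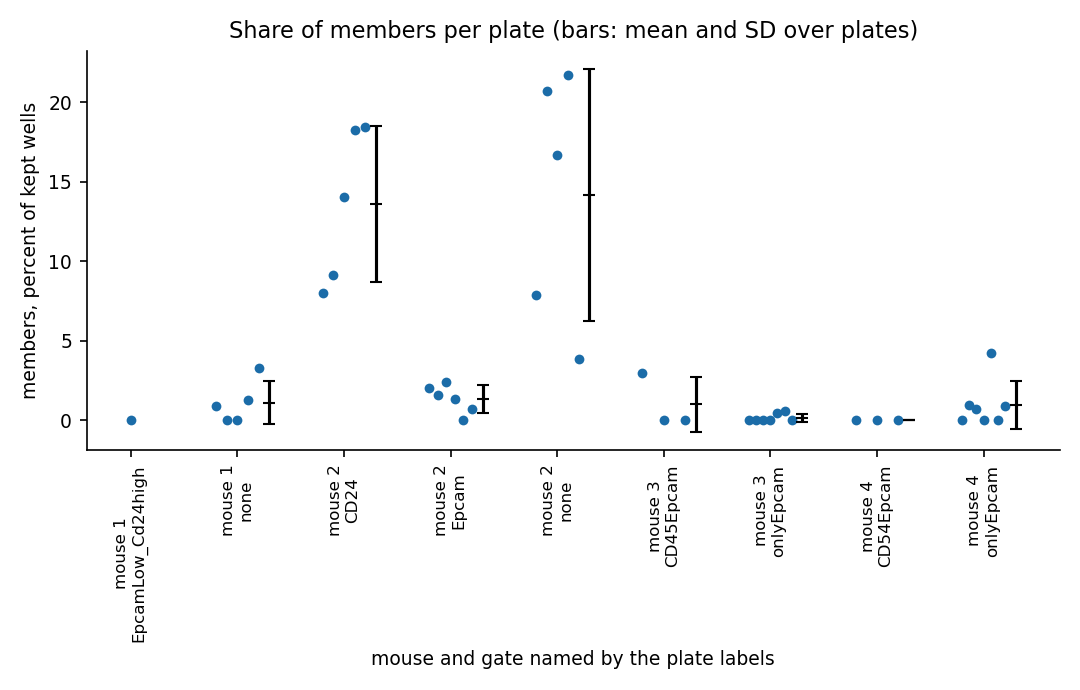
Each point is 1 plate with at least 20 kept wells, the y axis gives peptide hormone wells (members) in percent of kept wells, and bars give the mean and SD over the plates of a mouse and marker label. The CD24 plates of mouse 2 lie between 8.00 and 18.5% and its Epcam plates between 0 and 2.41%.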

How the data were processed

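The authors deposited counts: 1 table of UMI counts per gene and well, from MARS-seq of single jejunal cells in 384-well plates (44 plates of 4 mice, 23379 genes). The labels name bcl2fastq 2.15.0.4 and the genome build GRCm38; the study's methods name STAR and zUMIs with a setting for strand. The per-plate background subtraction from empty wells that the study describes was not applied here. All values were whole numbers, and wells carry the same 384 barcodes on every plate by design. Other processed files were not used here.

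Members and gene lists were chosen with earlier results of these data known. The genes named are the 10 largest rises and 6 largest falls among those that passed and moved the same way in every mouse. Against Tph1 or Tac1 wells they are up to 6 each way, and mice without such a sum had to lie beyond every such sum. Between Gip and Sct wells, where none passed, genes from the 5 with the lowest p are named. The lists of endocrine and marker genes are named too. Within mouse 2, genes with at least 30 UMIs, in at least 20% of wells and 4-fold apart are named, a rule chosen after the data were seen. Wells were summed per mouse (at least 5 wells, 3 for hormone groups) and tested with edgeR 4.0.16 (quasi-likelihood, TMM, filterByExpr, Benjamini-Hochberg, R 4.3.3); levels are UMIs per 10000. Plate shares and eta used exact permutation tests over plates or mice. Shares of wells are exact binomial and levels exact Poisson at 95%, for counting error only. Each model was tested on simulated data. Alternatives were DESeq2 1.42.0, its size factors, no low-count filter, the mouse as a block, each mouse or plate left out, thresholds of 16 and 32 UMIs (32 added after the data were seen), rule genes left out of the library size and no 4-month plates. Sums of a mouse are paired, since both arms come from the same animal by the labels; the deviations of paired sums correlated at 0.016 to 0.223 (wells below the threshold), 0.142 and 0.398 (Tph1 or Tac1) and 0.578 and 0.584 (Gip and Sct).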

Additional observations from a re-analysis of the deposited data

Results flagged for a closer look

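Of 31 groups of 4 to 10 values, 6 held a value far from the rest by Dixon's test, which flags about 1 group in 20 by chance. In mouse 3, whose sum holds 5 wells, Kcnj3 was high at 6.31 UMIs per 10000 against 0.396 to 1.03 in the other mice, and Rbp4 was high at 10.5 against 5.09 to 5.34. The summed list of receptors and channels was low in the same mouse, at 10.5 per 10000 against 15.3 to 15.6. In mouse 2 the list of adhesion genes was at 0.537, and it had 0 of 29452, 9505 and 9707 UMIs in mice 1, 3 and 4. A floor of 3 UMIs lies above 0.537 in each of those mice, so they are not shown to be lower. The tuft list was at 18.6 in mouse 2 and at most 0.340 elsewhere. On 1 onlyEpcam plate of mouse 4 the peptide hormone wells made up 4.26% of kept wells (4 of 94), against at most 0.943% on the other 6.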

How the results depend on the processing

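Among 187 values of genes named against wells below the threshold under the alternatives, all kept direction and call; for genes named against Tph1 or Tac1 wells 105 kept both and 27 lost the call, 9 with no low-count filter and 8 without mouse 2, and none turned direction. Against wells below the threshold 822 genes passed, and 460 with DESeq2, 1715 with no low-count filter, 532 with the mouse as a block and 423 to 697 with single mice left out. Against Tph1 or Tac1 wells 11 passed, and 2 with no filter, 32 with the mouse as a block, 88 with the threshold of 32 UMIs (which also takes out mouse 3) and 0 to 77 with single mice left out; where this left 1 sum in an arm, that sum was taken to vary like the others. Between Gip and Sct wells 0 passed, 3 with DESeq2, 3 with the mouse as a block, 2 when Gip wells were set against all other members and 0 to 1 with single mice left out; a minimum of 5 wells per mouse could not be fitted. The share by plate as a share of enteroendocrine wells turned to -24.2 points in mouse 2 and -4.17 in mouse 3, and plates left out gave 11.0 to 13.6, -0.143 to 1.36 and -1.14 to -0.429 points in mice 2, 3 and 4. The cause of these changes was not tested. The eta difference lay between 0.00734 and 0.0338 with single mice left out. No paired analysis was possible because over mice only mouse 2 had both arms for eta, and the marker labels lie on different plates; Gip and Sst wells share 5 plates of that mouse, a pairing within 1 animal that was described (eta higher in Gip on 5 of 5) and not tested. Sparse counts limit all groups but Gip and Sst.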

Other observations

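Across the 189 wells, correlations between a hormone and 1320 other genes describe which genes share wells; the wells share plates, depth and mouse 2, so no p is given. Sst went with Iapp (Spearman's rho 0.67) and Asic5 (0.62), and Gip with Fabp5 (0.58) and the pseudogene Gm6166 (0.55). Cck and Sct both went with Myl7 (0.59 each), and with Scg2 (0.56 and 0.52). Nts went with Ffar1 (0.43). Ghrl went with Iapp (0.62), yet the 4 Ghrl wells had no Iapp UMI, while Sst wells carried both. Pyy, which led no well, had no correlation above 0.25. Over the 152 wells of 32 or more rule UMIs, rho was 0.74 for Sst with Iapp, 0.60 for Gip with Fabp5, 0.54 and 0.52 for Cck and Sct with Myl7, 0.44 for Nts with Ffar1 and 0.61 for Ghrl with Iapp.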
